A study of Ovis aries with 6 samples.

Results

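The semaphorins, their plexin and neuropilin receptors and the DPYSL proteins that act downstream were examined in cultured sheep fat-tissue cells with forced expression of MEOX2. The genes were taken from the deposited table by symbol: every row whose name starts with SEMA, PLXN or DPYSL, together with NRP1, NRP2 and CRMP1. This gave 35 of the 26425 rows, made up of 6 secreted semaphorins, 13 membrane semaphorins, 2 neuropilins, 9 plexins and 5 genes of the DPYSL and CRMP1 family. The family was picked because DPYSL3 was higher with MEOX2 in these same libraries. The DPYSL3 difference is therefore given as a description with no test, and no count over the family supports a statement about it.

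Semaphorins are secreted or membrane-bound guidance proteins, first known for repelling growing axons and now known in vessels, bone, immune cells and fat. They bind plexins, whose inner domain switches off small GTPases of the Ras and Rap type and thereby loosens adhesion and reorganises actin. Secreted semaphorins of class 3 mostly need a neuropilin as co-receptor, and neuropilins also bind vascular endothelial growth factor. DPYSL proteins, also called collapsin response mediator proteins, are cytosolic relays of semaphorin signals that bind tubulin and actin.

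RNA sequencing was performed on 3 samples that overexpress MEOX2, a mesodermal homeobox transcription factor, and on 3 control samples labelled NC. All 6 came from the stromal vascular fraction of sheep adipose tissue, a mixed fraction that holds adipocyte precursors, and are labelled as adipocytes. Column names of both groups carry the prefix pHBLV; breed, age, sex and time after gene transfer were not given in the sources used here. Nothing says that the samples of a group came from separate animals or cultures, so the p-values cover the spread among these libraries alone, which can be technical. Whole reads recovered from the deposited FPKM values (reads scaled to gene length and library size) totalled 11772772 to 12230863 per library. MEOX2 itself was at 108 to 153 FPKM in the MEOX2 samples, against 9.03 to 10.8 FPKM in NC, with an exact two-sided permutation p of 0.1, the smallest that 3 against 3 samples allow. Its reads do not separate the introduced from the endogenous gene. Of 8 adipocyte marker rows, 7 averaged 1 FPKM or more and LEP was listed at 0 in every library. These markers summed to 128 to 150.1 FPKM in the MEOX2 samples and to 299 to 359.7 FPKM in NC, mostly from FABP4. The sum was thus higher in the control samples, but not each marker was. LPL was at 39.7 ± 4.28 FPKM in MEOX2 and 39.5 ± 2.45 FPKM in NC, and the CEBPA groups overlapped. On the second principal component NC sample 3 lay away from the rest.

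None of the members tested, which leaves out DPYSL3, passed the threshold. Changes were tested with limma on log2(FPKM + 1) over all 13121 rows with a mean of at least 1 FPKM, and Benjamini-Hochberg adjusted values under 0.05 were called. Of the 35 members, 22 passed this filter, and of the 21 other than DPYSL3 limma called 0, against 2.67% of all rows tested, 1.51% higher and 1.16% lower. An unadjusted p under 0.05 was reached by 7 of the 21, 4 higher and 3 lower with MEOX2, against 13.4% of all rows, 7.08% higher and 6.35% lower. The same test by limma voom on the recovered reads called 3 members, all lower with MEOX2: SEMA3F, SEMA3G and NRP1. It called 4.17% of all rows. The MEOX2 and NC values did not overlap for 9 of the 21, 2 higher and 7 lower, against 18.9% of all rows, 9.6% higher and 9.33% lower. Their median log2 change was -0.07, beside -0.0027 over all rows tested.

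**Figure D1:**
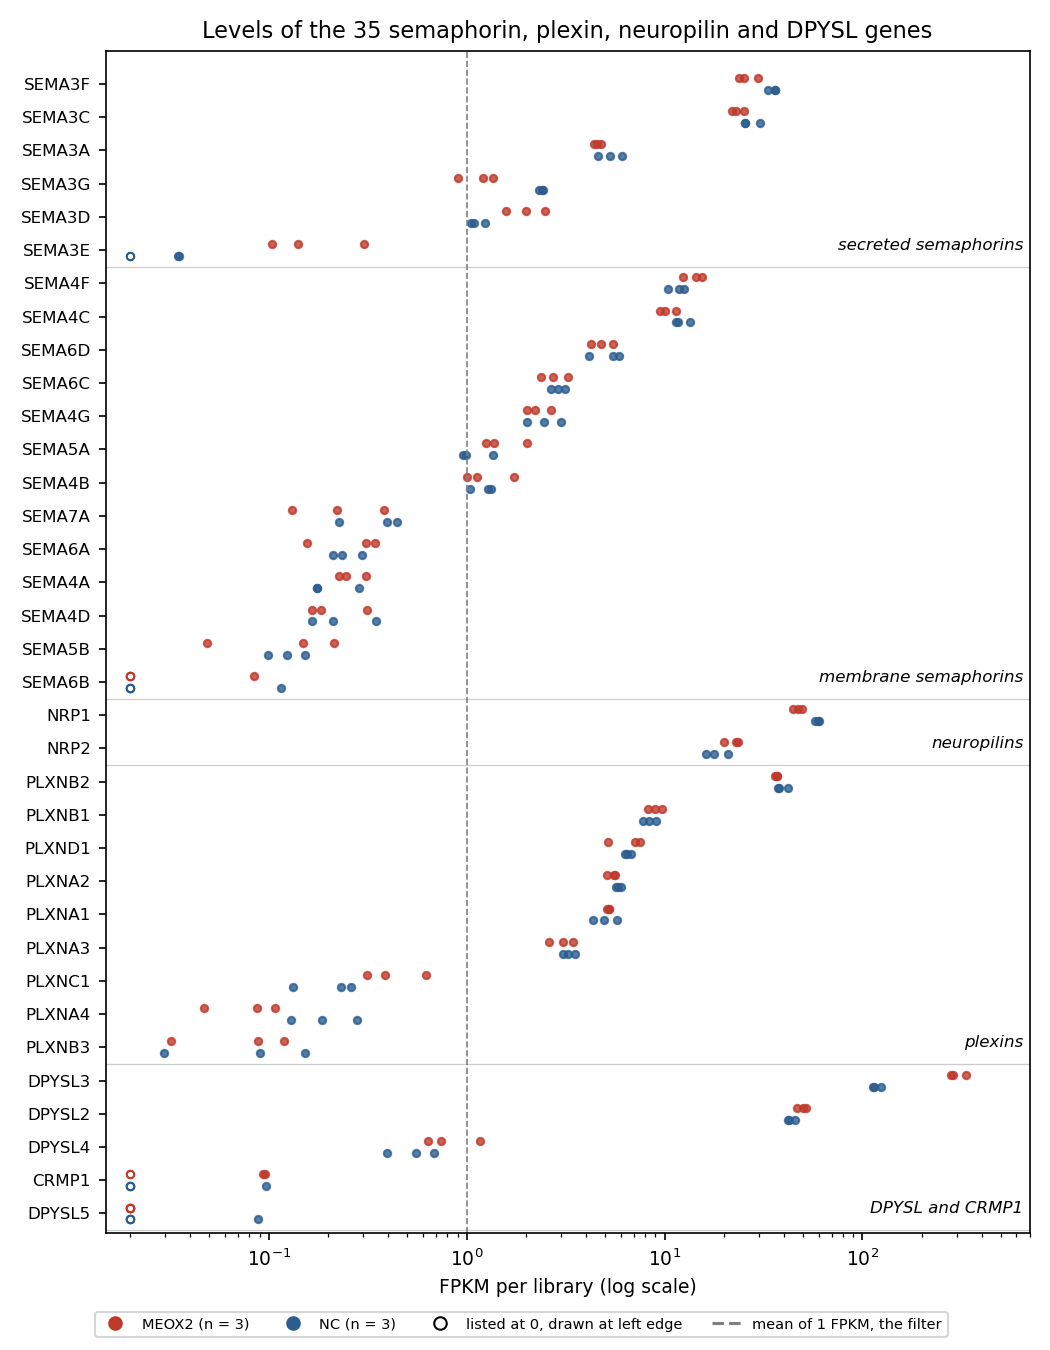
FPKM of each of the 35 genes in each library on a log axis, with the 3 MEOX2 libraries (red) above the 3 NC libraries (blue) in each row and genes ordered by level within families. Levels ran from 0 to 335 FPKM, and DPYSL3 was the gene with the highest level in all 6 libraries.

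Secreted semaphorins, the ligands of the neuropilin and plexin A receptor complexes, were represented mainly by SEMA3F and SEMA3C. SEMA3F, a class 3 semaphorin that prefers NRP2 and is known to restrain vessel and lymphatic growth (ENSOARG00000010649, chromosome 19, 50113547 to 50136691, minus strand), was at 29.6, 23.8 and 25.3 FPKM in MEOX2 samples 1 to 3, against 36.3, 36.1 and 33.4 FPKM in NC samples 1 to 3. Every MEOX2 library was below every NC library. The means were 26.2 ± 2.97 FPKM in MEOX2 and 35.3 ± 1.61 FPKM in NC (SD, n = 3 each), a log2 change of -0.42 (SE 0.10, limma adjusted p = 0.0647). SEMA3F was therefore not called, but it passed the threshold by limma voom (adjusted p = 0.0045), after scaling to total reads (0.0409), with a filter of 5 FPKM (0.0481) and without MEOX2 sample 1 (0.0471). In the other alternatives run SEMA3F did not pass. Among these were limma without a filter (adjusted p = 0.114), without the trend (0.113) and with the replicate block (0.0953). The same held with scaling by trimmed means (TMM, limma adjusted p = 0.0636) and without NC sample 1 (0.235). SEMA3C, which binds both neuropilins, averaged 23.3 ± 1.71 FPKM in MEOX2 and 27.2 ± 2.80 FPKM in NC, at a limma adjusted p of 0.407. Its 2 groups did not overlap either, but the highest MEOX2 value and the lowest NC value lay close together, at 25.2 and 25.6 FPKM. SEMA3F and SEMA3C overlapped in level across libraries, although SEMA3F was the higher of the pair within each of the 6.

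SEMA3G and SEMA3D were low, and their estimates had opposite signs. SEMA3G, another ligand of NRP2 (ENSOARG00000004415, chromosome 19, 48414589 to 48423359, plus strand), was at 1.36, 1.21 and 0.903 FPKM in MEOX2 samples 1 to 3, against 2.32, 2.42 and 2.398 FPKM in NC samples 1 to 3. The mean in MEOX2 was 48.6% of that in NC, the groups did not overlap and the NC libraries were close to each other. On the log2(FPKM + 1) scale, which understates changes of low genes, the difference was -0.65 (SE 0.15, limma adjusted p = 0.0601); it rested on 25 to 67 reads per library. SEMA3G passed by limma voom (log2 change -1.06, adjusted p = 0.0065) and in limma without the intensity trend (0.0233). It did not pass in the other fits that held it, among them limma with the replicate block (adjusted p = 0.121) and without MEOX2 sample 3 (0.19).

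SEMA3D, a class 3 semaphorin studied mainly in heart and neural crest development (ENSOARG00000015109, chromosome 4, 35464042 to 35606041, plus strand), was at 1.999, 1.59 and 2.48 FPKM in MEOX2 samples 1 to 3, against 1.09, 1.24 and 1.06 FPKM in NC samples 1 to 3. Every MEOX2 library was above every NC library, with a 1.79-fold ratio of the means. The log2 change was 0.50 (SE 0.16, limma adjusted p = 0.196), on 31 to 72 reads per library. By limma voom the adjusted p was 0.0742, so SEMA3D was called by neither tool.

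SEMA3A, the ligand of NRP1 for which growth cone collapse was described, averaged 4.59 ± 0.193 FPKM in MEOX2 and 5.34 ± 0.736 FPKM in NC, and the groups overlapped (limma adjusted p = 0.598). SEMA3E, which binds PLXND1 without a neuropilin, did not pass the filter. MEOX2 samples 1 to 3 had 8, 3 and 4 reads of it, against 0, 1 and 1 in NC samples 1 to 3, too few to compare. SEMA3D, SEMA3A, SEMA3E and SEMA3C lie in that order along chromosome 4, all on the plus strand in the deposited coordinates, while SEMA3G and SEMA3F lie on chromosome 19. Along this stretch SEMA3D had a positive estimate and SEMA3A and SEMA3C negative ones, none of them called. The difference between these genes was not tested.

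Summed over the 6 secreted semaphorins, the level was 63.2, 53.2 and 56.1 FPKM in MEOX2 samples 1 to 3, against 70.6, 70.02 and 73.4 FPKM in NC samples 1 to 3. The sum was lower in each MEOX2 library than in any NC library, and SEMA3F and SEMA3C made up most of it in both groups. SEMA3F took 45.6% ± 1.05 of the sum in MEOX2 and 49.5% ± 3.46 in NC (SD, n = 3 each), with NC sample 3, at 45.5%, among the MEOX2 values. SEMA3G took 2.01% ± 0.352 in MEOX2 and 3.34% ± 0.103 in NC, and SEMA3D 3.52% ± 0.778 in MEOX2 and 1.58% ± 0.169 in NC. These sums and shares are descriptions of the members' values and were not tested.

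**Figure D2:**
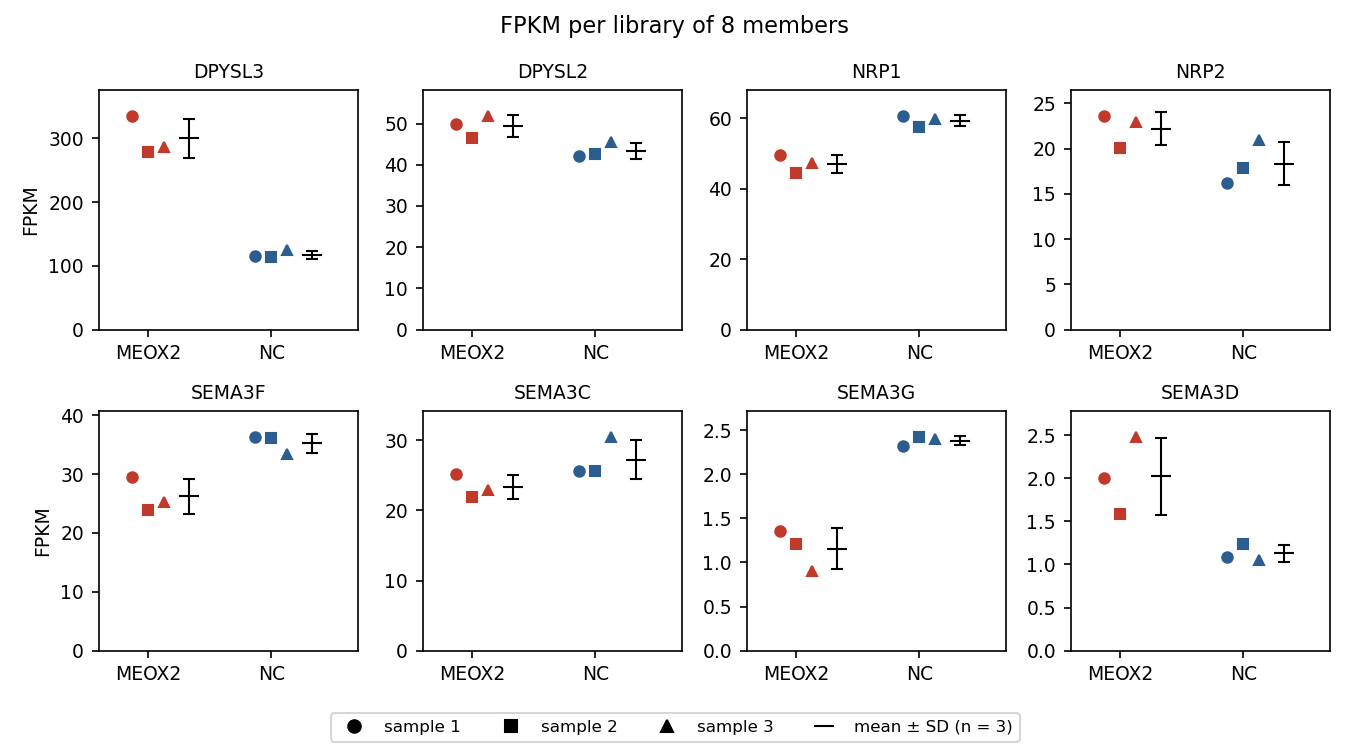
FPKM per library (points) with the mean ± SD (n = 3) for 8 members, MEOX2 left and NC right, each axis starting at 0. DPYSL3 and SEMA3D were higher and SEMA3F and SEMA3G lower in every MEOX2 library than in any NC library, while the NRP2 values of the groups overlapped.

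Membrane semaphorins were led by SEMA4F and SEMA4C, whose levels overlapped. SEMA4F, a transmembrane semaphorin found at synapses and in glia (ENSOARG00000012879, chromosome 3, 96423283 to 96446666, plus strand), was at 12.4, 14.4 and 15.4 FPKM in MEOX2 samples 1 to 3, against 10.4, 12.6 and 11.9 FPKM in NC samples 1 to 3. MEOX2 sample 1 fell below NC sample 2, so the groups overlapped. The log2 change was 0.26 (SE 0.11, limma adjusted p = 0.352). SEMA4C, a ligand of PLXNB2 known from muscle and neural development, averaged 10.3 ± 1.02 FPKM in MEOX2 and 12.2 ± 1.07 FPKM in NC, at a limma adjusted p of 0.428. The SEMA4C groups did not overlap, with the highest MEOX2 and the lowest NC value at 11.45 and 11.46 FPKM.

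The other 5 membrane semaphorins that passed the filter were SEMA6D, SEMA6C, SEMA4G, SEMA5A and SEMA4B. SEMA6D and SEMA6C, transmembrane ligands of plexin A receptors, averaged 4.83 ± 0.606 and 2.78 ± 0.446 FPKM in MEOX2, against 5.17 ± 0.891 and 2.899 ± 0.239 FPKM in NC. SEMA4G was at 2.31 ± 0.337 FPKM in MEOX2 and 2.49 ± 0.497 FPKM in NC, and SEMA4B at 1.29 ± 0.385 FPKM in MEOX2 and 1.22 ± 0.154 FPKM in NC. SEMA5A, which carries thrombospondin repeats outside the cell, was at 1.55 ± 0.403 FPKM in MEOX2 and 1.10 ± 0.219 FPKM in NC (log2 change 0.27, limma adjusted p = 0.581). The groups overlapped for each of these 5. The 95% limma interval of the log2 change was -0.13 to 0.67 for SEMA5A and -0.37 to 0.43 for SEMA4B. For SEMA6D, SEMA6C and SEMA4G it was -0.40 to 0.25, -0.36 to 0.26 and -0.43 to 0.28. Summed over all 13 membrane semaphorins, the level was 38.3 ± 1.76 FPKM in MEOX2 and 37.9 ± 1.57 FPKM in NC.

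SEMA7A, SEMA6A, SEMA4A, SEMA4D, SEMA5B and SEMA6B did not pass the filter. SEMA7A is anchored to the membrane by a lipid, and SEMA4D and SEMA4A are best known from immune cells. Their mean levels over the 6 libraries ran from 0.0333 FPKM for SEMA6B to 0.2999 FPKM for SEMA7A, on at most 17 reads in any library. Without the filter limma called none of them (adjusted p from 0.732 to 0.967). So few reads limit what can be detected, and no detection limit was computed.

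Neuropilins are co-receptors with short cytoplasmic tails that pair with plexins or with vascular endothelial growth factor receptors. NRP1 (ENSOARG00000017485, chromosome 13, 18654135 to 18797389, plus strand) was at 49.6, 44.6 and 47.2 FPKM in MEOX2 samples 1 to 3, against 60.6, 57.6 and 59.8 FPKM in NC samples 1 to 3. All MEOX2 libraries lay below all NC libraries. The means were 47.1 ± 2.53 FPKM in MEOX2 and 59.4 ± 1.60 FPKM in NC (SD, n = 3 each), a log2 change of -0.33 (SE 0.07, limma adjusted p = 0.0616). NRP1 was not called, and it passed by limma voom (adjusted p = 0.0103) and after scaling to total reads (0.0481).

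NRP2 (ENSOARG00000018434, chromosome 2, 206749749 to 206866241, plus strand) was at 23.6, 20.1 and 22.96 FPKM in MEOX2 samples 1 to 3, against 16.2, 17.8 and 20.97 FPKM in NC samples 1 to 3. NC sample 3 lay above MEOX2 sample 2, so the groups overlapped. The log2 change was 0.27 (SE 0.11, limma adjusted p = 0.336), and without NC sample 3 the adjusted p was 0.133. The estimates of the 2 neuropilins had opposite signs. The NRP1 to NRP2 ratio of FPKM, a value that was not tested, was 2.10, 2.22 and 2.06 in MEOX2 samples 1 to 3, against 3.74, 3.23 and 2.85 in NC samples 1 to 3. NC sample 3 had the lowest NC ratio, still above every MEOX2 ratio. NRP1 was above NRP2 in all 6 libraries.

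Plexins, the signal-transducing receptors, differed little between the groups. PLXNB2, a receptor of class 4 semaphorins (ENSOARG00000019806, chromosome 3, 223878088 to 223892897, minus strand), was the plexin with the highest level, at 37.1, 36.1 and 37.2 FPKM in MEOX2 samples 1 to 3, against 37.4, 41.99 and 37.7 FPKM in NC samples 1 to 3. The groups were next to each other without overlap. Its log2 change was -0.08 with a 95% limma interval of -0.26 to 0.10 (adjusted p = 0.745). PLXNB2 took 55.3% ± 1.72 of the summed plexin FPKM in MEOX2 and 56.9% ± 1.07 in NC.

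PLXNB1, the receptor of SEMA4D, was at 8.97 ± 0.722 FPKM in MEOX2 and 8.38 ± 0.680 FPKM in NC. PLXND1, the receptor of SEMA3E known from vessel patterning, was at 6.58 ± 1.24 FPKM in MEOX2 and 6.54 ± 0.241 FPKM in NC. The plexin A receptors, partners of neuropilins, were PLXNA2 at 5.43 ± 0.271 FPKM in MEOX2 and 5.87 ± 0.167 FPKM in NC, PLXNA1 at 5.19 ± 0.0579 FPKM in MEOX2 and 5.03 ± 0.7096 FPKM in NC, and PLXNA3 at 3.04 ± 0.424 FPKM in MEOX2 and 3.28 ± 0.221 FPKM in NC. The PLXNA2 groups did not overlap, with the highest MEOX2 and the lowest NC value at 5.62 and 5.72 FPKM. PLXND1, PLXNA2 and PLXNA1 overlapped in level as neighbours in this order. For the 6 plexins that passed the filter the limma adjusted p ran from 0.745 to 0.995, and the 95% intervals of the log2 change lay within -0.38 to 0.32.

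PLXNC1, PLXNA4 and PLXNB3 did not pass the filter. PLXNC1, the receptor of SEMA7A, had 19, 17 and 33 reads in MEOX2 samples 1 to 3, against 12, 7 and 14 reads in NC samples 1 to 3. PLXNA4, a plexin best known from the nervous system, had 4, 10 and 8 reads in MEOX2 samples 1 to 3, against 25, 17 and 12 reads in NC samples 1 to 3. In both the groups did not overlap, in opposite directions, as was also the case for SEMA3E. Of the 13 members under the filter these 3 did not overlap, beside 8.36% of the 5619 rows above 0 with a mean under 1 FPKM. No member was called when the filter on low values was removed.

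**Figure D3:**
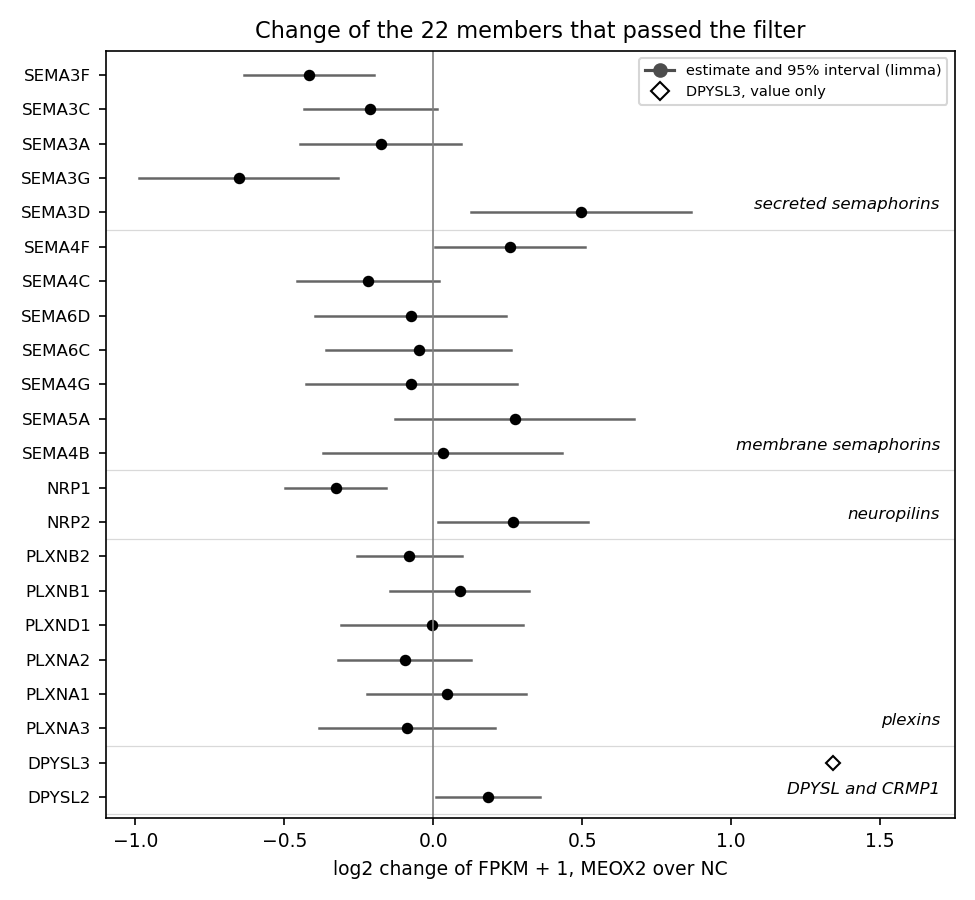
Log2 change of FPKM + 1 (MEOX2 over NC) for the 22 members that passed the filter, with 95% intervals from limma, grouped by family. DPYSL3 is drawn without an interval at 1.34; the other estimates lie between -0.65 for SEMA3G and 0.50 for SEMA3D, and the 6 plexins lie within 0.10 of 0.

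DPYSL3, also named CRMP4, binds and bundles actin filaments and is best known from migrating neurons and growth cones (ENSOARG00000003603, chromosome 5, 56061968 to 56174316, minus strand). It was at 335, 279 and 286 FPKM in MEOX2 samples 1 to 3, against 115, 113 and 124 FPKM in NC samples 1 to 3. Every MEOX2 library was far above every NC library. The mean of 299.8 ± 30.3 FPKM in MEOX2 was 2.55 times the 117 ± 6.07 FPKM in NC (SD, n = 3 each). On 4198 to 11619 reads per library the log2 change was 1.34, the position 19 from the top among the 13121 rows tested. It ranged from 1.26 to 1.39 when each library was left out in turn. This position and range come from the same libraries whose DPYSL3 difference picked the family. They describe that difference and give it no support. In these bulk samples, more cells that express a gene and more RNA per cell cannot be told apart, for DPYSL3 or any other member.

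DPYSL2, or CRMP2, the family member that carries tubulin dimers to growing microtubules (ENSOARG00000009770, chromosome 2, 38834882 to 38953654, minus strand), was at 49.9, 46.6 and 51.8 FPKM in MEOX2 samples 1 to 3, against 42.0, 42.6 and 45.6 FPKM in NC samples 1 to 3. Its groups did not overlap, but the gap was small. The log2 change of 0.18 (SE 0.08) was not called (limma adjusted p = 0.341), with a 95% interval of 0.01 to 0.36. The DPYSL3 to DPYSL2 ratio of FPKM was 6.71, 5.99 and 5.52 in MEOX2 samples 1 to 3, against 2.73, 2.66 and 2.73 in NC samples 1 to 3. This ratio and the family shares given below restate the DPYSL3 difference that picked the family. They give it no support and were not tested.

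DPYSL3 was already the leading member in the control samples, with 72.8% ± 0.204 of the summed FPKM of the family in NC, and it took 85.6% ± 1.23 in MEOX2. DPYSL2 supplied nearly all of the rest in both groups. DPYSL4 had 8 to 24 reads per library and did not pass the filter, at 0.849 ± 0.280 FPKM in MEOX2 and 0.545 ± 0.145 FPKM in NC. CRMP1 and DPYSL5, family members typical of neurons, had at most 2 reads in any library. In level the order DPYSL3, DPYSL2, DPYSL4 held in each of the 6 libraries without overlap.

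**Figure D4:**
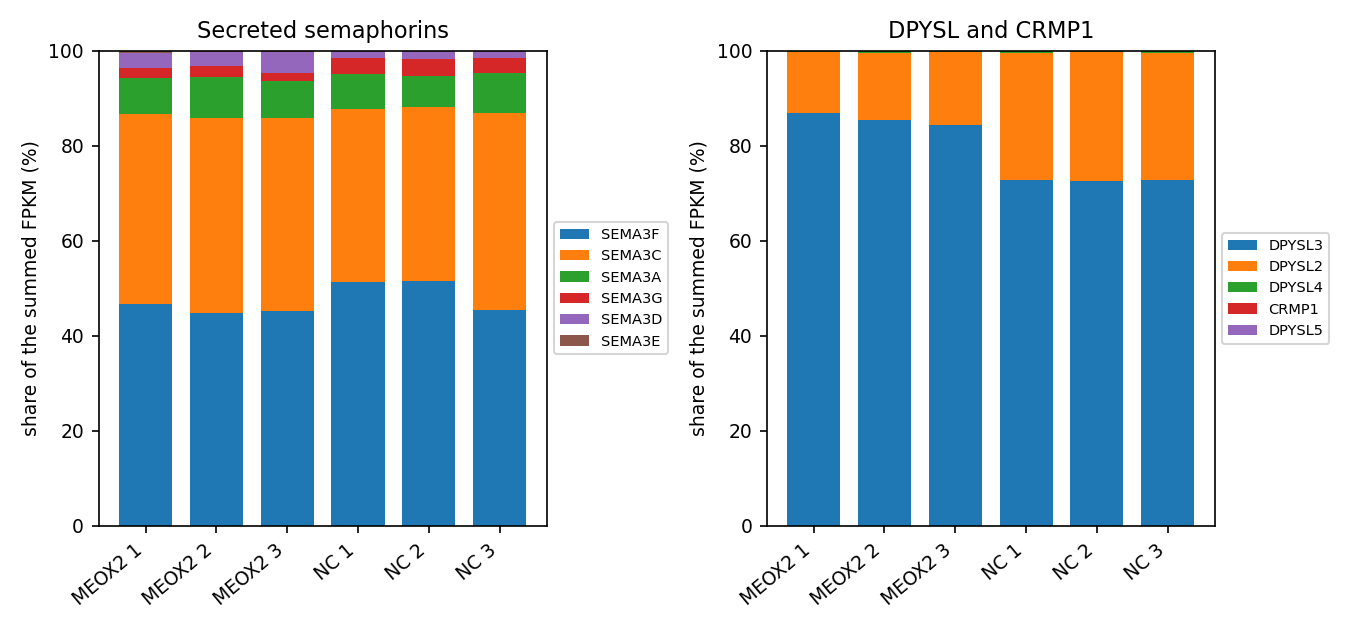
Share of the summed FPKM taken by each gene in each library, secreted semaphorins left and the DPYSL and CRMP1 family right, with the 3 MEOX2 libraries left of the 3 NC libraries. DPYSL3 takes 84.4% to 86.9% of its family in MEOX2 and 72.5% to 72.9% in NC, and SEMA3D and SEMA3G change places among the low secreted semaphorins.

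Because DPYSL and semaphorin genes are also expressed by nerve, vessel, immune and smooth muscle cells, marker lists of these cells were set beside the values above. Of 12 neuron marker rows only SNAP25 passed the filter and ELAVL3, ELAVL4 and GAP43 were listed at 0; the list summed to 3.90 to 4.52 FPKM in MEOX2 and 3.75 to 4.84 FPKM in NC. Of 10 Schwann cell rows S100B and MBP passed, PMP2 and CDH19 were among those listed at 0, and the sums, which were mostly S100B, were 119 to 155 FPKM in MEOX2 and 139 to 151 FPKM in NC. Of 9 endothelial rows EGFL7 alone passed, EMCN was listed at 0, and the sums were 2.4998 to 4.12 FPKM in MEOX2 and 2.32 to 3.68 FPKM in NC. Leukocyte markers summed to 128 to 138 FPKM in MEOX2 and 118 to 125 FPKM in NC, mostly from CD14, with 5 of 13 rows past the filter, PTPRC at a mean under 0.02 FPKM in each group and MS4A1 listed at 0. In these 4 lists limma called 0 of the tested rows, beside 2.67% of all rows. Limma voom called 1, beside 4.17% of all rows, and an unadjusted p under 0.05 was reached by 1, beside 13.4%. In each case this was CD163, a macrophage receptor, at 1.38 ± 0.0442 FPKM in MEOX2 and 2.32 ± 0.4197 FPKM in NC (limma voom adjusted p = 0.0157). CD163 was lower in every MEOX2 library than in any NC library, against the direction of the leukocyte sums.

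Of 7 tested smooth muscle and pericyte markers limma called 2, both higher with MEOX2 as DPYSL3 was, beside 2.67% of all rows called. CNN1, a calponin of contractile cells, reached 70.98 ± 4.53 FPKM in MEOX2, against 48.4 ± 3.09 FPKM in NC (log2 change 0.54, limma adjusted p = 0.0127), and the pericyte proteoglycan CSPG4 rose by 0.48 (limma adjusted p = 0.0321). The other 5 were not called by limma. TAGLN, at 502 ± 21.4 FPKM in MEOX2 and 415 ± 3.37 FPKM in NC, passed by limma voom (adjusted p = 0.0477). MCAM was lower in every MEOX2 library than in any NC library, with a log2 change of -0.14. The log2 changes of NOTCH3, MYH11 and PDGFRB were 0.08, 0.03 and -0.02, with overlapping groups. Leaving out MEOX2 sample 3 ended the call of CNN1 (limma adjusted p = 0.0615), and leaving out any library ended that of CSPG4 (up to 0.133). CSPG4 was also not called with the replicate block (0.0742), without a filter (0.0653) and without the trend (0.0523). The 9 rows of the list summed to 723 to 769 FPKM in MEOX2 and 626 to 632 FPKM in NC, mostly from TAGLN. None of the rows was at 0 in all libraries. Their part in the DPYSL3 difference was not tested. Of 12 tested stromal progenitor markers, F3 rose by 0.45 (limma adjusted p = 0.0496), and 11 were not called. The F3 call was lost without any 1 library (up to 0.175), with the replicate block (0.0912) and in 6 other alternatives. F3, PDGFRA, LUM, DCN and CD44 were higher in every MEOX2 library than in any NC library. For LUM and DCN the gap was very narrow. The lowest MEOX2 and the highest NC value were 1292 and 1289 FPKM for LUM, and 3588 and 3582 FPKM for DCN. The log2 changes of PDGFRA, LUM, DCN and CD44 were 0.21, 0.22, 0.21 and 0.16, and neither limma nor limma voom called these genes. ENG, NT5E and CD34 were lower in every MEOX2 library than in any NC library, with log2 changes of -0.30, -0.23 and -0.54. In all, the groups did not overlap for 8 of the 12 tested markers of this list, beside 18.9% of all rows. Of ENG, NT5E and CD34, limma voom called ENG (adjusted p = 0.0274). The list summed to 15940 to 17567 FPKM in MEOX2 and 14648 to 15248 FPKM in NC, mostly from COL1A1 and DCN. Of 7 tested adipocyte markers limma called 5 lower, beside 1.16% of all rows, namely ADIPOQ, FABP4, PPARG2, PLIN1 and CIDEC. LPL and CEBPA were not called, with log2 changes of 0.0046 and -1.11 and overlapping groups. PLIN1 and CIDEC lost the call without any 1 library (limma adjusted p up to 0.0872 and 0.0958). PLIN1 was also not called without a filter (0.0519), nor CIDEC with the replicate block (0.0671). Their part in the values of the members was likewise not tested.

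Genes that work with semaphorins and plexins were counted in the same fit over 6 lists (co-receptors and ligand partners, processing enzymes, plexin effectors, DPYSL kinases and partners, the actin severing branch and other axon guidance families). Of 86 genes tested limma called 1 higher and 1 lower, beside 2.67% of all rows, and 15 had an unadjusted p under 0.05, beside 13.4% of all rows. The median log2 change was 0.0035. By limma voom 7 were called, beside 4.17% of all rows. The lists were not tested against the rest of the table.

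MICAL2, a flavoenzyme that oxidises actin and belongs to the family of plexin-linked MICAL proteins, rose to 13.5 ± 1.43 FPKM in MEOX2, against 7.12 ± 1.30 FPKM in NC (SD, n = 3 each). Its log2 change was 0.84 (SE 0.13, limma adjusted p = 0.0146). Leaving out MEOX2 sample 1 or 3 or NC sample 1 or 2 ended this call (adjusted p from 0.0545 to 0.0659), as did removing the filter (0.0581). The other 26 of the 27 plexin effectors and GTPase regulators were not called, among them FYN, a kinase that acts between plexin A receptors and DPYSL proteins, at 126 ± 8.21 FPKM in MEOX2 and 162 ± 8.26 FPKM in NC, at a limma adjusted p of 0.0533. FYN passed by limma voom (0.0038), after scaling to total reads (0.0336), with a filter of 5 FPKM (0.0421) and with a robust fit (0.0476). The list had a median of 0.05.

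C-MET, the hepatocyte growth factor receptor, which itself carries a semaphorin domain and can associate with plexin B receptors, fell to 1.32 ± 0.0616 FPKM in MEOX2, against 2.73 ± 0.225 FPKM in NC (SD, n = 3 each). The log2 change was -0.68 (SE 0.13, limma adjusted p = 0.0353), and the call was lost without any 1 of the 6 libraries (up to 0.126) and with the replicate block (0.0892). The other 10 of the 11 co-receptors and ligand partners were not called, and the list had a median of -0.17. L1CAM, a neural adhesion molecule that joins the NRP1 complex, was at 5.96 ± 0.159 FPKM in MEOX2 and 8.79 ± 1.19 FPKM in NC, at a limma adjusted p of 0.0662. VEGFA, the growth factor ligand of NRP1, was at 142 ± 19.1 FPKM in MEOX2 and 180.01 ± 11.8 FPKM in NC, at a limma adjusted p of 0.1598. Both passed only by limma voom among the alternatives run.

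The remaining 4 lists held 7 to 18 tested genes each, and a share of 2.67% as over all rows would give less than 1 call in any of them. Over all rows 13.4% had an unadjusted p under 0.05 and limma voom called 4.17%. Of 7 tested processing and shedding enzymes limma called none, 3 had an unadjusted p under 0.05 and limma voom called 1. The proprotein convertases PCSK5 and FURIN, of which FURIN cleaves class 3 semaphorins, had the smallest p, at 12.6 ± 0.441 and 38.6 ± 2.09 FPKM in MEOX2, against 16.4 ± 0.736 and 47.4 ± 5.89 FPKM in NC. Of 13 tested DPYSL kinases and partners limma and limma voom called none and 1 had an unadjusted p under 0.05. KIF5B, a kinesin motor, and ROCK2, a serine/threonine kinase of the cytoskeleton, had log2 changes of 0.28 and 0.26. In the actin severing branch limma and limma voom called none of 10, and none had an unadjusted p under 0.05; LIMK2, a cofilin kinase, and SSH2, a cofilin phosphatase, had log2 changes of 0.18 and -0.18. Of 18 tested genes of the slit, netrin, ephrin and repulsive guidance families limma called none, limma voom called 1 (SLIT3) and 4 had an unadjusted p under 0.05. SLIT3, a secreted ligand of ROBO receptors, was at 3.25 ± 0.283 FPKM in MEOX2 and 1.92 ± 0.263 FPKM in NC, at a limma adjusted p of 0.0857, and NTN4, a netrin, had a log2 change of -0.30.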

How the data were processed

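Sheep RNA sequencing libraries, 3 with MEOX2 overexpression and 3 NC, were analysed from 1 deposited table, which holds the authors' FPKM values and each gene's length. Per the labels' protocols, TRIzol was used to extract RNA and the NEBNext Ultra kit to build libraries. The submitters' processing notes name, without roles, DESeq2 1.20.0, featureCounts 1.5.0-p3, HISAT2 2.0.5, fastp and CASAVA 1.8. Genome build, annotation and strandedness were not given in the sources used here; coordinates are the table's own and reads of overlapping or antisense genes cannot be told apart. FPKM times length gave whole multiples of 1 read in 100% of the nonzero values (tolerance 0.001 read).

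Log2(FPKM + 1) values of rows with a mean of at least 1 FPKM were fitted in R 4.3.3 with limma 3.58.1 (lmFit, eBayes with trend, no covariates; Benjamini-Hochberg over all rows), with an exact permutation test for MEOX2. Summaries used Python 3.11.15, numpy 2.4.6, pandas 2.3.3, scipy 1.17.1 and matplotlib 3.10.9. The fit was also run on simulated data that placed changes only in genes above a read cut. That run does not cover members with few reads and is not used as support. The members, marker lists and signalling lists were chosen with earlier results of these data known. Of 208 list entries 189 matched by symbol, 1 by a synonym in the RefSeq table (assembly ARS-UI_Ramb_v3.0) and 18 not. Values per sample are given for DPYSL3, for the highest member of each family and for members with an unadjusted p under 0.05; of each list, called genes are named, or else the 2 of smallest p. Other genes were named with their values known. Alternatives were other pseudocounts, filters, scalings and variance models, limma voom on recovered reads, a replicate block and each library left out.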

Additional observations from a re-analysis of the deposited data

How the results depend on the processing

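No called gene named in the report changed sign under the alternatives run, and MEOX2 passed in each. The count of 0 members called lower became 1 with a filter of 5 FPKM (SEMA3F), 1 without the trend (SEMA3G), 2 after scaling to total reads (NRP1 and SEMA3F) and 3 by limma voom, and lay between 0 and 1 with a library left out; the count called higher stayed at 0. The count of signalling genes called higher, 1, became 0 without a filter and 2 without the trend or by voom, and lay between 0 and 1 with a library left out. The count called lower, 1, became 2 with a robust fit or total-read scaling, 5 by voom and 0 with the replicate block, and was 0 without any 1 library; with a filter of 5 FPKM it stayed at 1, with FYN in place of C-MET, which that filter removes. Fits with a library left out have fewer samples. Deviations of same-numbered samples correlated at -0.07, 0.02 and -0.0042, and those of differently numbered samples at -0.085 to 0.086. With 3 libraries per group these values cannot exclude a shared batch, culture or animal behind a number. The replicate block lowered the calls over all rows from 350 to 242. Voom called 547. Members under 1 FPKM rest on at most 33 reads, which limits what can be detected.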
